A study of Mus musculus with 2 samples.

Results

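Cholinergic neurons of the medial habenula, the small epithalamic nucleus that lies against the dorsal thalamus, were described in a single-nucleus RNA-seq data set of mouse thalamus. Nuclei were chosen by a rule on measured counts. A member held at least 4 unique molecular identifiers (UMIs) summed over Chat, Slc5a7, Chrna3, Nwd2 and Tspan18, had at least 3 of these 5 genes detected, and held no UMI of Gad1 or Gad2. Nuclei with 200 to 7500 genes and at most 2% mitochondrial UMIs entered. The rule selected 1455 of 38150 nuclei, 536 of 16373 in the sham library and 919 of 21777 in the injury library. Both groups were female C57BL/6J mice aged 3 months. The injury group had undergone cortical ablation injury, the surgical removal of sensory and motor cortex on 1 side, and the sham group had a burr hole without removal of tissue. Thalamus of the operated side was collected on day 21 after surgery, and nuclei of 4 mice were pooled into 1 library a group. The mice of a pool cannot be separated, so each group had 1 library, no replicate check was possible and no test was run. Surgery, pool and dissection cannot be told apart in any difference between the libraries.

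The medial habenula receives input from the septum and sends its axons through the fasciculus retroflexus to the interpeduncular nucleus. Its ventral neurons make acetylcholine with choline acetyltransferase (Chat) and release it together with glutamate, and its dorsal neurons make the tachykinin substance P, which is encoded by Tac1. The nucleus is known for one of the densest expressions of nicotinic acetylcholine receptors in brain and for its part in nicotine withdrawal and aversion.

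The sham library held 137850696 UMIs over 16390 barcodes and the injury library 180106314 UMIs over 21828 barcodes. The members had a median of 5656.5 UMIs in sham and 6193 in injury, and summed to 3672542 and 7038277 UMIs. Levels are given as UMIs summed over the members of a library per 1000000 UMIs of those members (CPM). Every interval is an exact 95% interval of the counts and covers counting error only. The 2 libraries shared 101 barcodes, of which 1 in each library was a member. The doublet caller Scrublet marked 14.6% of the sham members and 20.7% of the injury members, against 13.3% and 17.8% of all kept nuclei. The members formed 10 Leiden clusters, and in 3 of them over 50% of the nuclei were called doublets. These mixed clusters, numbers 4, 8 and 10, held 78 sham and 191 injury members and were led by Synpo2, by Kcnh1 and Unc5d, and by St18 and Mbp. Clusters 4 and 8 had median depths of 15633 and 12325.5 UMIs, against 5965 over all members. The 458 sham and 728 injury members outside the mixed clusters held 2540666 of the 3672542 sham and 4367375 of the 7038277 injury UMIs. Differences between the libraries are given over all members and, where stated, outside the mixed clusters. Levels of single genes against other neurons are over all members, so they include the UMIs of the mixed clusters.

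The rule fixes the levels of its 5 genes, so these are a description. The summed UMIs of the 5 genes ranged from 4 to 226 over the sham members, with a median of 50, and from 4 to 236 over the injury members, with a median of 56. Nwd2, which encodes a NACHT and WD repeat domain protein, stood at 6908 CPM in sham and 7068 CPM in injury and was detected in 100% of the nuclei of each cluster. Tspan18 (a tetraspanin, chr2:93201760-93334505, minus strand of GRCm38) stood at 591 CPM in sham and 607 CPM in injury, and Chrna3 (a nicotinic receptor subunit) at 166 CPM in sham and 178 CPM in injury. All 5 genes were detected in 130 sham and 237 injury members, and exactly 3 in 201 and 316. Just inside the limit, the 17 sham and 19 injury members with 4 to 9 rule UMIs had Ano1 at 99.7 and 73.8 CPM. They held Htr2c at 498 and 598 CPM, beside 127 and 109 CPM over all members, and Pou4f1 at 13.3 and 0 CPM. Just outside it, 397 sham and 560 injury nuclei reached the sum with 2 of the genes, and held Ano1 at 202 and 224 CPM and Htr2c at 722 and 439.7 CPM. The condition on Gad1 and Gad2 removed 23 sham and 65 injury nuclei that otherwise passed.

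Members made up 3.27% of the kept sham nuclei (interval 3.01 to 3.56%) and 4.22% of the kept injury nuclei (interval 3.96 to 4.50%). The share was 1.29-fold higher in the injury library, with a counting interval of 1.16 to 1.44. Outside the mixed clusters the shares were 2.80% and 3.34%, a ratio of 1.20 (interval 1.06 to 1.35). The habenula borders the thalamus, and how much of it entered each dissection was not measured.

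Markers that the rule did not use were checked first. Ano1, which encodes a calcium-activated chloride channel, stood at 815 CPM in sham and 856 CPM in injury in the members and at 13.8 and 17.7 CPM in the other Gad-free neuron-like nuclei of the same libraries. Robo3, an axon guidance receptor of commissural and habenular axons, stood at 594 CPM in sham and 581 CPM in injury against 13.4 and 15.01 CPM. A UMI of Ano1 was found in 94.03% of sham and 95.6% of injury members, and in 0.132% of sham and 1.07% of injury oligodendrocyte-like nuclei, whose median depth was 1717 and 1927 UMIs. The habenular transcription factor Pou4f1 stood at 54.2 CPM in sham and 44.04 CPM in injury against 5.72 and 5.09 CPM, and the orphan nuclear receptor Nr4a2 at 166 CPM in sham and 148 CPM in injury against 10.7 and 8.48 CPM. Ano1, Robo3, Pou4f1 and Nr4a2 were thus each higher in the members than in other neurons of both libraries. Calb2, another unused marker, went the other way. A UMI of it was found in 4.85% of sham and 8.81% of injury members, against 15.3% and 14.3% of the other neurons. Pou4f1 did not part the members from nuclei with Ptprq or Pde11a, at 65.5 and 49.6 CPM in nuclei with at least 3 UMIs of Ptprq and 69.2 and 52.3 CPM in nuclei with at least 3 UMIs of Pde11a. Gng8 and Nhlh2, also unused, were found in a smaller share of members than of nuclei with Ptprq or Pde11a. Ano1 and Robo3, which were named along with the rule genes, were not confined to the members. In sham and injury, Ano1 was found in 38.7 and 44.5% of Ptprq and 54.2 and 51.5% of Pde11a nuclei. Robo3 was found in 34.2 and 36.3% and in 40.2 and 34.3%. Irx2 was found in 29.0 and 30.1% of Ptprq nuclei, against 23.5 and 29.9% of members. Of the 16 medial habenula markers outside the rule, 14 reached 100 UMIs over the members. All 16 summed to 2802 CPM in sham and 2638 CPM in injury in the members against 174 and 178 CPM in the other neurons. The plot of unused markers shows them with other genes in both libraries.

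**Figure D1:**
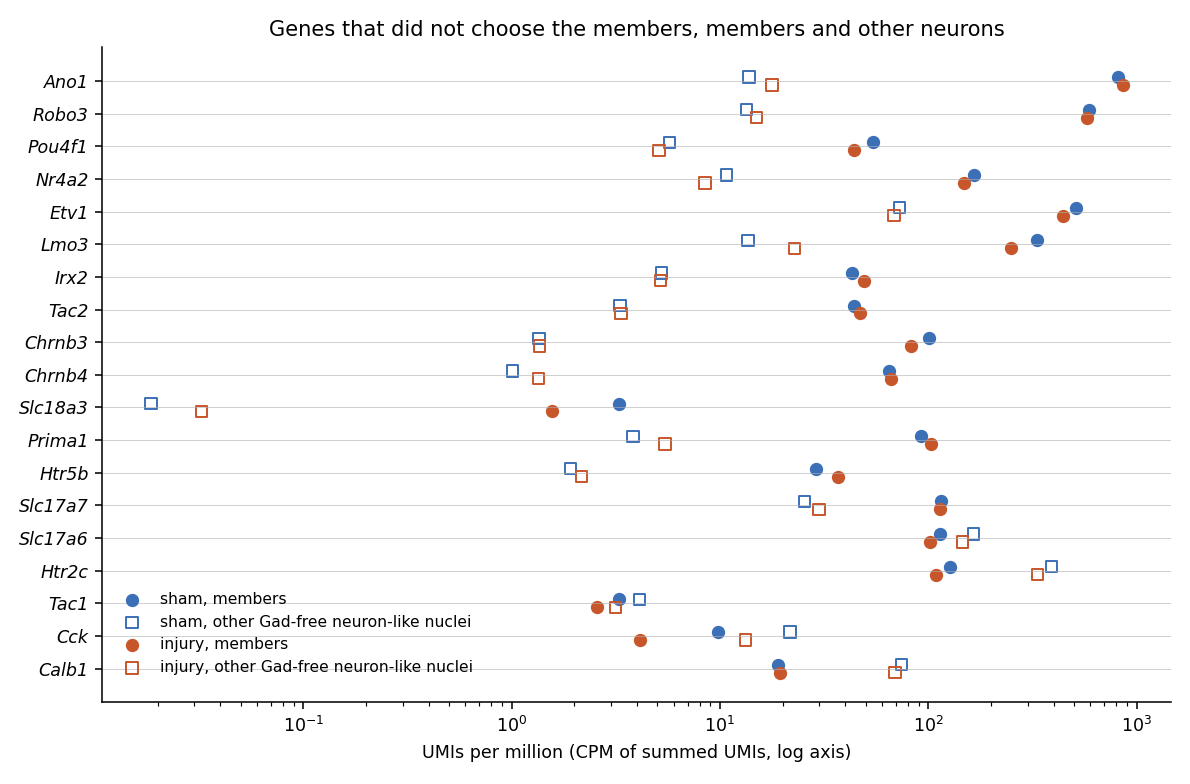
Levels of 19 genes that did not choose the members, as CPM on a log axis, for members (filled circles) and other Gad-free neuron-like nuclei (open squares) in sham (blue) and injury (orange). Ano1, Robo3, Chrnb3 and Chrnb4 lie far to the right in the members, while Slc17a6, Htr2c, Tac1, Cck and Calb1 do not, and the sham and injury symbols of each gene lie close together.

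Among genes that make, load and break down acetylcholine, the pattern was uneven. Chat, a rule gene that encodes the synthesizing enzyme, stood at 199.6 CPM in sham and 198 CPM in injury, with 733 UMIs in sham and 1396 in injury (log2 ratio -0.01, interval -0.14 to 0.12). A Chat UMI was present in 65.5% of sham and 66.2% of injury members, against 0% of sham and 0.178% of injury oligodendrocyte-like nuclei. Thinning to 4000 UMIs used the 398 sham and 736 injury members with at least 4000 UMIs. Of these, 52.8% in sham and 53.3% in injury kept a Chat UMI. The share with a Chat UMI was nearly the same in both libraries, but Chat helped to choose the members, so this share is a description. The same holds for its contrast with oligodendrocyte-like nuclei, from which members were left out. Slc5a7, the high-affinity choline transporter and a rule gene, stood at 174 CPM in sham and 139 CPM in injury (log2 ratio -0.32, interval -0.47 to -0.17), with a log2 ratio of -0.27 outside the mixed clusters. In the other neurons Slc5a7 had a log2 ratio of -0.24 at levels of only 1.43 and 1.21 CPM. Slc18a3, the vesicular acetylcholine transporter, gave only 12 UMIs in sham and 11 in injury, or 3.27 CPM in sham and 1.56 CPM in injury. Slc18a3 lies at chr14:32462438-32464850 inside the Chat gene, which spans chr14:32408203-32465989 on the same, minus strand of GRCm38, and how the counting assigned reads of this shared stretch was not tested. The non-coding gene Gm2990 overlaps Chat on the opposite strand and was also among the genes highest in the members relative to other neurons, at 12.8 CPM in sham and 13.5 CPM in injury, but whether counting used the strand is not given in the sources used here.

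Other genes of the acetylcholine list were outside the rule. Prima1, which anchors acetylcholinesterase in the membrane, stood at 92.03 CPM in sham and 103 CPM in injury in the members against 3.83 and 5.44 CPM in the other neurons (log2 ratio 0.17, interval -0.02 to 0.36). Ache, the esterase itself, was no higher in the members than elsewhere, at 21.8 CPM in sham and 20.6 CPM in injury against 23.4 and 20.8 CPM. Acly, which makes cytosolic acetyl-CoA, the acetyl donor of acetylcholine, stood at 40.8 CPM in sham and 58.3 CPM in injury, from 150 UMIs in sham and 410 in injury (log2 ratio 0.51, interval 0.24 to 0.79, outside the mixed clusters 0.58, interval 0.26 to 0.91). Acly was thus higher in the injury library, while in the other neurons its log2 ratio was 0.05. Of the 9 compared genes of this list, 0 were at least 1.5-fold higher or lower in injury, beside 2.01% of 9524 genes that were at least 1.5-fold higher and 1.42% that were at least 1.5-fold lower, and the list median was -0.01 beside a median of 0.00 over all genes. The 9 include the rule genes Chat and Slc5a7, and the median is the value of Chat itself.

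The subunits of the habenular nicotinic receptor were set against those of other nicotinic receptors. Chrna3 (alpha3, a rule gene) and Chrnb4 (beta4) lie next to each other, with Chrna3 at chr9:55010111-55026562 and Chrnb4 at chr9:55028154-55048779, and Chrna5 is their neighbour on the plus strand at chr9:54980880-55007779. Chrnb4 stood at 64.5 CPM in sham and 65.9 CPM in injury in the members against 1.01 and 1.35 CPM in the other neurons (log2 ratio 0.03, interval -0.20 to 0.26 between libraries). Chrnb3 (beta3, at chr8:27368711-27399730) stood at 101 CPM in sham and 82.5 CPM in injury against 1.35 and 1.36 CPM, and was lower in the injury library (log2 ratio -0.30, interval -0.49 to -0.10). Chrna5 (alpha5), in contrast, had only 4 UMIs in sham and 18 in injury, found in 0.746% of sham and 1.96% of injury members and 0% of sham and 0.0595% of injury oligodendrocyte-like nuclei. The neuronal subunits of the common forebrain receptor, Chrna4 and Chrnb2, stood at 7.08 CPM in sham and 5.40 CPM in injury and at 14.98 CPM in sham and 11.9 CPM in injury, against levels in other neurons of 11.5 and 11.04 CPM and 15.2 and 13.2 CPM. Chrna2, Chrnd and Chrne had 0 UMIs in the members, which allows a level of up to 0.817 CPM in sham and 0.426 CPM in injury. Of 16 subunits, 5 reached 100 UMIs, the rule gene Chrna3 among them, and their median was -0.16. Of these 5, 0 were at least 1.5-fold higher or lower in injury, beside 2.01% and 1.42% of all genes. Outside the mixed clusters 3 subunits reached 100 UMIs and their median was 0.13, and over the same 5 genes there it was -0.16.

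Genes for other transmitters were measured beside those of acetylcholine. Both vesicular glutamate transporters were detected. Slc17a7 stood at 115 CPM in sham and 114 CPM in injury against 25.5 and 29.8 CPM in the other neurons, and Slc17a6 at 113 CPM in sham and 102 CPM in injury against 165 and 146 CPM. Slc17a7, but not Slc17a6, was thus higher in the members than in the other neurons. The 2 had similar levels only when the mixed clusters were included. Over both libraries Slc17a6 stood above Slc17a7 in mixed clusters 4 (150 against 67.1 CPM) and 8 (119 against 54.1 CPM). It stood below Slc17a7 in every other cluster, as in cluster 1 (90.2 against 173 CPM). Slc17a7 was not particular to the members, of which 47.6% in sham and 53.9% in injury held a UMI of it. Among nuclei with Pde11a 36.3% and 36.4% did, and among nuclei with Ptprq 21.9% and 26.7%. Tac1, the substance P gene of dorsal medial habenula, had 12 UMIs in sham and 18 in injury, and 1 sham and 2 injury members held at least 2 UMIs of it. The related tachykinin gene Tac2 stood at 43.8 CPM in sham and 47.2 CPM in injury against 3.31 and 3.34 CPM in other neurons. Tac2 was not particular to the members, of which 23.1% in sham and 26.7% in injury held a UMI of it. Among nuclei with Pde11a 31.5% and 33.2% did, and among nuclei with Ptprq 21.9% and 20.5%. Nuclei with Pde11a and without enough rule genes held more Tac1, with 48.4 CPM in sham and 32.4 CPM in injury at Chat levels of 0.400 and 0.321 CPM. Nuclei with Ptprq held Tac1 at 21.6 and 16.1 CPM. Slc18a2, the vesicular monoamine transporter, stood at 28.05 CPM in sham and 22.3 CPM in injury against 14.8 and 14.5 CPM in other neurons. Of 5 compared neuropeptide genes 0 were past 1.5-fold, with a median of 0.10, and of 2 compared dorsal habenula markers 0, with a median of 0.13. Over all genes 2.01% were at least 1.5-fold higher and 1.42% at least 1.5-fold lower.

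Receptors and GABA-B receptor partners were compared between the members and other neurons. Tacr1, the substance P receptor, stood at 188 CPM in sham and 195 CPM in injury against 17.02 and 17.5 CPM. Htr4 and Htr5b, both serotonin receptors, stood at 289 CPM in sham and 384 CPM in injury and at 28.9 CPM in sham and 36.9 CPM in injury, against 40.3 and 47.4 CPM and 1.91 and 2.16 CPM. Htr4 was not particular to the members, since Ptprq nuclei held a UMI of it in 57.4% of sham and 42.5% of injury nuclei, at 139.7 and 94.9 CPM. Gabbr1 and Gabbr2, the GABA-B receptor subunits, stood at 489 CPM in sham and 478 CPM in injury and at 2042 CPM in sham and 2242 CPM in injury, against 149.8 and 146 CPM and 695 and 844 CPM. Their auxiliary subunit Kctd8 stood at 3108 CPM in sham and 2728 CPM in injury against 288 and 245 CPM, while its relative Kctd16 was lower in the members, at 148 CPM in sham and 179 CPM in injury against 710.5 and 739.99 CPM. Kctd12b, a further relative, was among the 15 genes highest in the members relative to other neurons, at 10.1 CPM in sham and 11.7 CPM in injury against 0.297 and 0.268 CPM. Kctd8 and Kctd16 thus differed from other neurons in opposite directions.

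Release and excitability genes showed the same kind of contrast. Cadps2, a dense-core vesicle priming factor, stood at 1356 CPM in sham and 1333 CPM in injury against 110.2 and 127 CPM in other neurons, while its paralogue Cadps stood at 303 CPM in sham and 303 CPM in injury against 1121 and 1133 CPM. Syt9, a calcium sensor of release, stood at 1895 CPM in sham and 1819 CPM in injury against 211 and 227 CPM, and Synpr, a synaptic vesicle membrane protein, at 864 CPM in sham and 802 CPM in injury against 26.1 and 38.7 CPM. Cacna1e, the pore of the R-type calcium channel, stood at 2106 CPM in sham and 2118 CPM in injury against 345 and 399.99 CPM. Kcnma1, the large-conductance calcium-activated potassium channel, stood at 16052 CPM in sham and 15254 CPM in injury against 1965 and 2044 CPM, and Kcnip1, which binds Kv4 channels, at 2009.8 CPM in sham and 2078 CPM in injury against 168 and 185 CPM. Its relative Kcnip4 showed the reverse, at 4485 CPM in sham and 4667 CPM in injury against 21049 and 18757 CPM. Among guidance genes, Nrp2, Sema3e and Slit2 stood at 738 CPM in sham and 745 CPM in injury, at 446 CPM in sham and 439 CPM in injury and at 821 CPM in sham and 795 CPM in injury, against 76.9 and 85.3 CPM, 44.8 and 45.9 CPM and 129 and 139.6 CPM.

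The members were not uniform. 7 of the 10 clusters lay outside the mixed ones, and their leading genes are a description, since the same genes formed them. Cluster 1 (132 sham and 172 injury nuclei) was led by Il1rapl2 and Ano2, cluster 2 (95 and 153) by Syt2 and Ebf3, cluster 3 (50 and 101) by Vit and Piezo2, and cluster 5 (53 and 76) by Sema3d and Oprm1. Cluster 6 (68 and 157) was led by Rxfp2, Calcrl and Htr4, cluster 7 (19 and 25) by Pde11a and Onecut1, and cluster 9 (41 and 44) by Sema3a and Adra1a. Chat, summed over both libraries, stood at 306, 304 and 299 CPM in clusters 1, 2 and 3. It was lower in cluster 6 (213 CPM), cluster 9 (194 CPM) and cluster 5 (164 CPM), and lowest in cluster 7 (35.7 CPM), whose nuclei held a UMI of Nwd2 in 100%, of Tspan18 in 79.5% and of Chrna3 in 77.3%. Only 15.9% of the nuclei of cluster 7 held a Chat UMI, and the name cholinergic rests there on 7 nuclei.

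Levels of some receptor genes ranged more widely across the clusters than that of Chat. This is a description, since genes of the same nuclei formed the clusters and Chat helped to choose the members. Chrnb3 stood at 171 CPM in cluster 1 and 148 CPM in cluster 2, but at 4.93 CPM in cluster 5, where 1.55% of nuclei held a UMI. Chrnb4 and Chrna3 did not follow it, with 93.6 and 266 CPM in cluster 5 against 78.6 and 215 CPM in cluster 1. Cluster 5 thus held beta4 transcripts nearly without beta3. Its Chrna3 level was favoured by the rule, since Chat and Slc5a7 were found in only 47.3% and 41.1% of its nuclei. Oprm1, the mu opioid receptor, stood at 818 CPM in cluster 5 and 635 CPM in cluster 7, against 5.27 CPM in cluster 1 and 6.12 CPM in cluster 2. Htr4 ran from 20.6 CPM in cluster 9 and 21.1 CPM in cluster 2 to 1113 CPM in cluster 6. Members without a Chat UMI, 185 in sham and 311 in injury, had a lower median depth (4987 and 5523 UMIs) than those with one (6077 and 6771.5), and held Oprm1 at 225 and 300.5 CPM against 70.3 and 87.8 CPM.

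Depth, called doublets and foreign marker lists were compared across clusters. Cluster 4 had a median of 15633 UMIs, 98.7% called doublets and the relay neuron list at 3468 CPM. Cluster 8 had a median of 12325.5 UMIs, 80.2% called doublets and the lateral habenula list at 1449 CPM. Cluster 10 had 90.6% called doublets and the oligodendrocyte list at 4117 CPM, and held 5 sham and 27 injury nuclei. Chat stood at 85.8 CPM in cluster 4 and 92.8 CPM in cluster 8. Clusters 2 and 9, outside the mixed ones, also held the relay neuron list, at 829 and 1115 CPM beside 852 CPM in cluster 8, and cluster 9 held the lateral habenula list at 779 CPM. Prkcd and Synpo2 gave little of the relay list there, at 4.76 and 12.2 CPM in cluster 2 and 11.4 and 16.0 CPM in cluster 9. In cluster 4 they stood at 107 and 577 CPM. In clusters 2 and 9 the list level thus came mostly from its other genes.

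**Figure D2:**
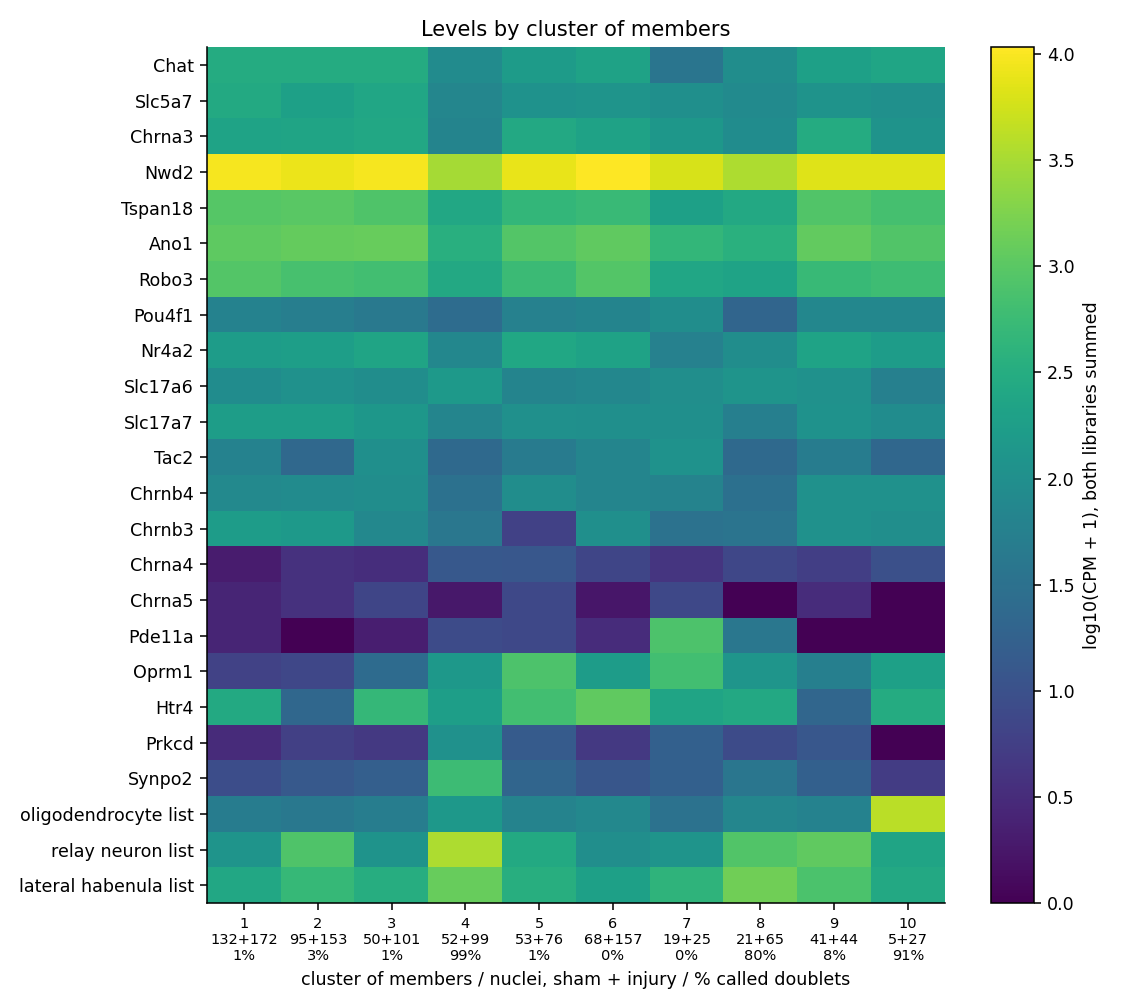
Levels of rule genes, other markers and 3 foreign marker lists in the 10 clusters of members, as log10(CPM + 1) over both libraries, with the number of sham and injury nuclei and the share called doublets under each column. Nwd2 is darkest in clusters 4 and 8 and Chat in cluster 7, the relay neuron list is brightest in cluster 4 and the oligodendrocyte list in cluster 10, Chrnb3 is darkest in cluster 5 and Pde11a brightest in cluster 7.

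The injury and sham members were then compared gene by gene. Of 9524 genes with at least 100 UMIs, 191 (2.01%) were at least 1.5-fold higher and 135 (1.42%) at least 1.5-fold lower in injury, of which 175 and 134 had a counting interval away from 0. By any amount, 4672 of the 9524 (49.1%) were lower in injury. The genes with the highest ratios included several of myelinating oligodendrocytes. Prr5l had 14 UMIs in sham and 261 in injury, in 8 and 59 nuclei (log2 ratio 3.28, interval 2.51 to 4.17). St18, Mobp and Mbp, of which Mobp and Mbp encode myelin proteins, had log2 ratios of 2.47, 2.36 and 1.81, and Mbp had 70 UMIs in sham and 471 in injury. Bcas1, Trf and D7Ertd443e, also oligodendrocyte genes, had 1.88, 1.70 and 1.98. Cluster 10, led by oligodendrocyte genes, held 5 of the 536 sham and 27 of the 919 injury members. Outside the mixed clusters Mbp had a log2 ratio of 0.46, interval -0.17 to 1.13, and D7Ertd443e 0.07, interval -1.67 to 1.99. Prr5l had 2.61 there, interval 0.58 to 5.75, St18 1.85, interval 0.48 to 3.57, and Mobp 1.09, interval 0.15 to 2.15. Of the 12 genes with the largest ratios, 9 kept an interval away from 0 outside the mixed clusters. Without nuclei that held at least 5 astrocyte or oligodendrocyte marker UMIs as well, 5 did. The 6 oligodendrocyte markers summed to 59.6 CPM in sham and 219 CPM in injury in all members and to 37.4 and 62.7 CPM outside the mixed clusters, while the other neurons held 106 and 195 CPM. The 12 genes with the largest ratios, which also include Daam2, Nhsl1, Neat1, Dock1 and Mertk, were all also higher in the other neurons of the injury library.

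Outside the mixed clusters, 7708 genes reached 100 UMIs, and 114 (1.48%) were at least 1.5-fold higher and 82 (1.06%) at least 1.5-fold lower. The top 4 there were genes that astrocytes express strongly. Npas3 had a log2 ratio of 1.68, interval 1.24 to 2.14, Gpc5 1.60, the glutamate transporter Slc1a2 1.55 and the sodium bicarbonate cotransporter Slc4a4 1.39. These values rested on few nuclei. Of 247 astrocyte marker UMIs in the 728 injury members outside the mixed clusters, 143 lay in 6 nuclei of cluster 2, against 43 UMIs in all 458 sham members. Without the 2 sham and 9 injury members that held at least 5 astrocyte or at least 5 oligodendrocyte marker UMIs, the log2 ratio of Npas3 was 0.25 (interval -0.28 to 0.79) and that of Gpc5 0.07. Of the 12 genes with the highest ratios there, 8 had an interval away from 0 also without those nuclei. Leng9, which overlaps Leng8 on the opposite strand, gave 94 sham and 398 injury UMIs over all members, a log2 ratio of 1.17, interval 0.77 to 1.59 outside the mixed clusters and 1.17 without those nuclei, and 0.93 in the other neurons. Ampd3, an AMP deaminase, had 1.13, interval 0.50 to 1.82 outside the mixed clusters, 1.15 without those nuclei and 0.16 in other neurons. Atp13a4, Arhgef33, Nxpe2, Zfp408, 4930486F22Rik and Rhbdd1 had ratios between 1.003 and 1.19, each from 106 to 154 injury UMIs over all members.

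The genes with the lowest ratios included ribosomal protein genes and translation factors. Dedd, a death effector domain protein, had 60 UMIs in sham and 42 in injury (log2 ratio -1.45, interval -2.06 to -0.86), and -1.14, interval -1.91 to -0.39 outside the mixed clusters. Eif5a, a translation factor, had 52 UMIs in sham and 50 in injury (log2 ratio -0.995, interval -1.58 to -0.41), and the ribosomal protein genes Rpl32 and Rpl31 had log2 ratios of -0.96 and -0.94. Mdp1, Tmem59l, Mrpl41, Dusp8, Gm10484, Gm27032, Gm5741 and AC106834.1 completed the 12, with ratios between -1.11 and -0.91. All 12 were also lower in the other neurons of the injury library, 9 of them with an interval below 0. Outside the mixed clusters 10 of the 12 kept an interval below 0, and those of Gm27032 and Mrpl41 held 0. AC106834.1, a non-coding gene at chr19:21121152-21248451, was also among the 15 genes highest in the members relative to other neurons, with 51 UMIs in sham and 51 in injury and -1.06, interval -1.72 to -0.41 outside the mixed clusters. The other neurons, at 0.222 and 0.219 CPM, had a log2 ratio of -0.02 for it. Outside the mixed clusters the lowest ratios belonged to Rps21 (-1.12), Htr2c (-1.03), Rnf168 (-1.03), Tmem132a (-0.95), Rps24 (-0.95), Calr (-0.95), Lsm1 (-0.94), Eif4a2 (-0.92), Fkbp3 (-0.86), Zfp780b (-0.86), Gm5741 (-0.84) and Tctn2 (-0.84). Of these 12, 11 were also lower in the other neurons of the injury library, 8 of them with an interval below 0. Htr2c, a serotonin receptor used here as a lateral habenula marker, had a ratio of only -0.21 over all members, and 144 of its 465 sham and 121 of its 769 injury UMIs lay outside the mixed clusters. The plot of the largest differences sets these values side by side.

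**Figure D3:**
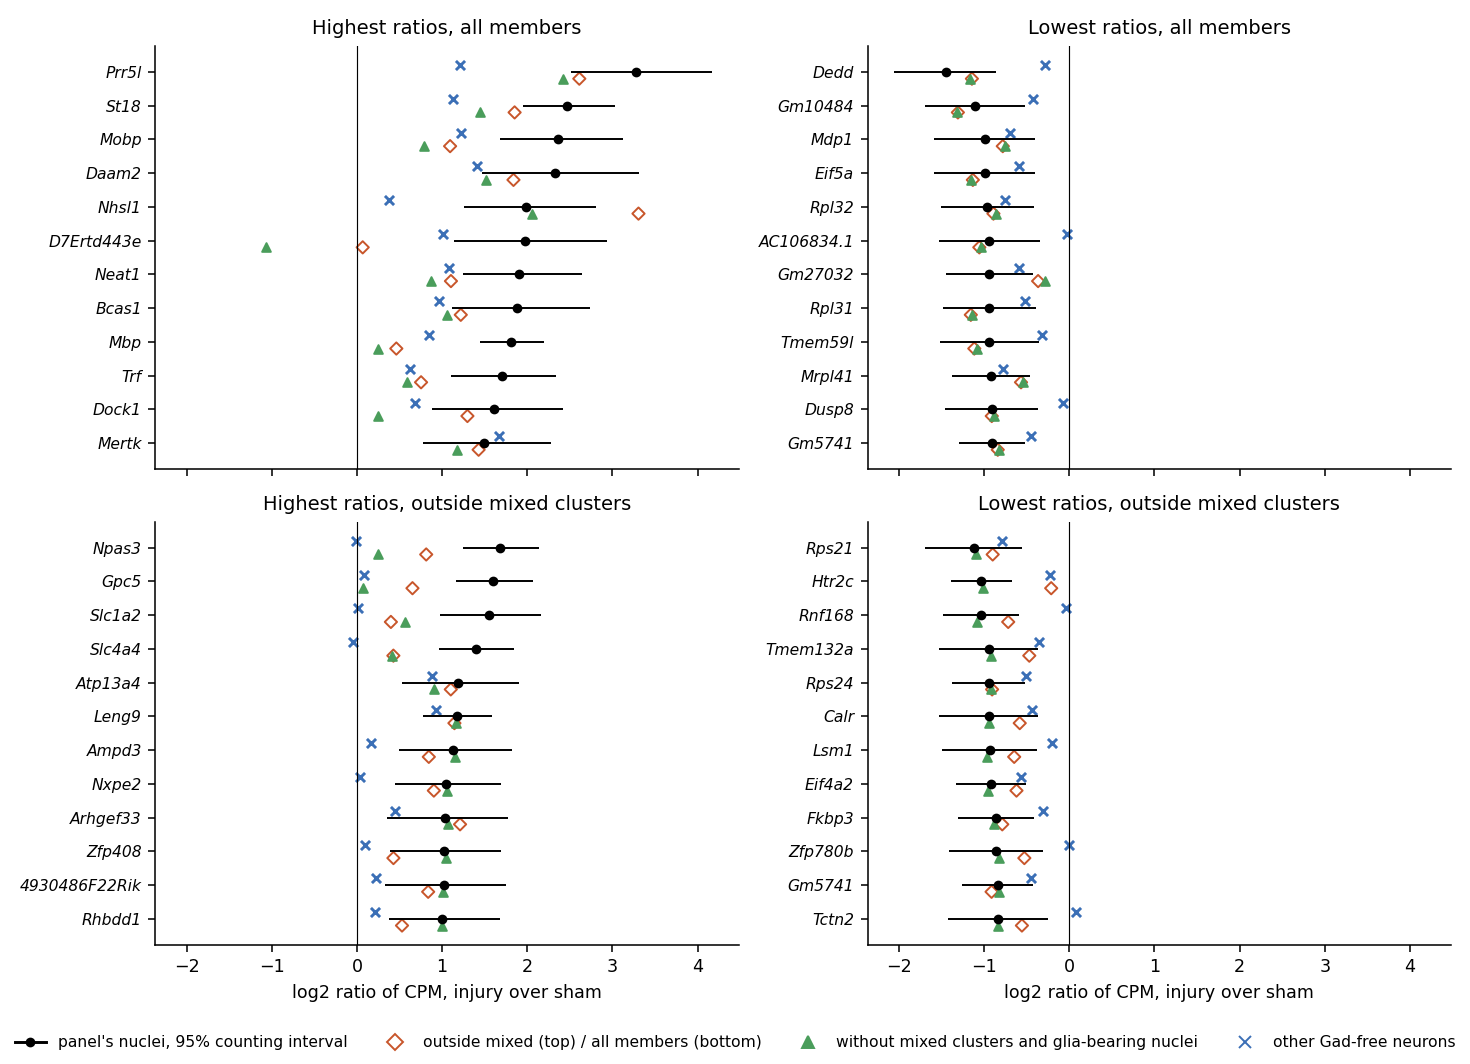
Log2 ratio of CPM, injury over sham, for the 12 highest and 12 lowest ratios over all members (top) and outside the mixed clusters (bottom), with 95% counting intervals for the nuclei each panel ranks. Diamonds, triangles and crosses give the ratio in the other set of members, without mixed clusters and glia-bearing nuclei, and in the other Gad-free neurons. Triangles lie left of the circles for most genes at top left and for Npas3 and Gpc5 at bottom left, and near the circles for most genes at right.

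Ribosomal protein genes were lower together. They summed to 1626 CPM in sham and 1281 CPM in injury (log2 ratio -0.34, interval -0.39 to -0.30). Of the 71 that reached 100 UMIs, 62 were lower in injury, beside 49.1% of all genes. Among the 71, 15 were at least 1.5-fold lower and 0 at least 1.5-fold higher, beside the 1.42% and 2.01% of all genes. The median log2 ratio was -0.35 beside 0.00 over all genes, and -0.33 outside the mixed clusters, where 9 of 46 were at least 1.5-fold lower beside 1.06% of all genes. The sum was lower in the injury nuclei of each of the 10 clusters. Its log2 ratio lay between -0.59 in cluster 10 and -0.03 in cluster 8, whose interval of -0.21 to 0.14 held 0. The difference was not particular to the members, since the other neurons had a median of -0.43 over the same genes, of which 69 were lower. Translation factors pointed the same way with smaller values. Of 27 compared, 22 were lower in injury, beside 49.1% of all genes, with a median of -0.17. Among the 27, 2 were lower by at least 1.5-fold, beside 1.42% of all genes, Eif5a and Eif4a2 (log2 ratio -0.62, interval -0.95 to -0.29). Median mitochondrial shares were 0.0181% and 0.0189% of UMIs in sham and injury members, and the part of RNA quality or pool in these values was not tested.

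Snap25, a SNARE protein of transmitter release, was lower in the injury members. It stood at 688 CPM in sham and 553 CPM in injury, from 2528 UMIs in sham and 3895 in injury (log2 ratio -0.31, interval -0.39 to -0.24). Snap25 was lower in the injury nuclei of all 10 clusters, from -0.93 in cluster 10 to -0.02 in cluster 7, with intervals that held 0 in clusters 5, 7 and 9. The other neurons had -0.29 for this gene, which helped to choose them as neuron-like. Sv2c, a vesicle glycoprotein, stood at 109.7 CPM in sham and 88.7 CPM in injury (log2 ratio -0.31, interval -0.49 to -0.12), against -0.01 in the other neurons, and Syt4 at 41.4 CPM in sham and 31.5 CPM in injury (log2 ratio -0.39, interval -0.70 to -0.08). The vesicle release list as a whole had a median of -0.03, beside 0.00 over all genes. Of its 33 compared genes 20 were lower and 13 higher in injury, beside 49.1% of all genes lower. Counting intervals lay below 0 for 7 and above 0 for 4. Of the 33, Snap25 included, 0 were at least 1.5-fold higher or lower, beside 2.01% and 1.42% of all genes. Potassium and sodium channels (34 genes, median -0.05, 1 higher by at least 1.5-fold, near the 2.01% of all genes) and calcium, HCN and chloride channels (21 genes, median 0.10, 0 past 1.5-fold) also lay near the value of all genes. Kcnh1 was the channel past 1.5-fold, with 27 UMIs in sham and 99 in injury, of which 85 of 126 lay in cluster 8, which it leads. Kcnq3, which carries M-type potassium current, stood at 219 CPM in sham and 292 CPM in injury (log2 ratio 0.42, interval 0.30 to 0.54, and 0.67 outside the mixed clusters). Most of its UMIs lay in the mixed clusters. Without them and the glia-bearing nuclei Kcnq3 kept only 48 sham and 117 injury UMIs (log2 ratio 0.53, interval 0.04 to 1.05).

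The 32 receptor genes for neuropeptides and monoamines summed to 944 CPM in sham and 1105 CPM in injury (log2 ratio 0.23, interval 0.17 to 0.28). Of the 13 that reached 100 UMIs, 9 were higher and 4 lower in injury, beside 49.1% of all genes lower. Among the 13, 3 were at least 1.5-fold higher, Adcyap1r1, Sstr2 and Adra1b, beside 2.01% of all genes. The median of the 13 was 0.35 over all members and 0.30 over the same genes outside the mixed clusters. Of the 8 that reached 100 UMIs there, 0 were at least 1.5-fold higher, beside 1.48% of genes, and their median was 0.16. Sstr2, a somatostatin receptor, had 25 UMIs in sham and 87 in injury (log2 ratio 0.86, interval 0.20 to 1.56) and 0.80, interval 0.10 to 1.55 outside the mixed clusters. Adcyap1r1, the PACAP receptor, had 25 UMIs in sham and 82 in injury, and its ratio outside the mixed clusters had an interval of -1.45 to 2.54. Adra1b, an adrenergic receptor, had 30 UMIs in sham and 90 in injury and 0.44, interval -1.69 to 3.02 there, so of the 3 only Sstr2 had an interval away from 0 outside the mixed clusters.

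Htr4, the serotonin receptor that leads cluster 6, gave 1061 of the 3468 sham and 2706 of the 7777 injury UMIs of this list. It stood at 289 CPM in sham and 384 CPM in injury, from 1061 UMIs in sham and 2706 in injury (log2 ratio 0.41, interval 0.31 to 0.52, and 0.43, interval 0.32 to 0.55 outside the mixed clusters). A UMI was present in 53.7% of sham and 60.7% of injury members, and after thinning in 49.2% of sham and 53.9% of injury members, against 0.395% of sham and 0.952% of injury oligodendrocyte-like nuclei. Htr4 helped to form the clusters, so cluster sizes and its level are not independent. Within clusters the log2 ratio was 0.35 in cluster 1, 0.25 in cluster 3, 0.46 in cluster 5 and 0.19 in cluster 6, and -0.91 in cluster 7. It was thus higher in injury in 8 of the 10 clusters and lower in clusters 7 and 9, with 5 sham and 4 injury UMIs in cluster 9. The other neurons had 0.24 at 40.3 and 47.4 CPM. Oprm1 stood at 119.8 CPM in sham and 153 CPM in injury (log2 ratio 0.35, interval 0.19 to 0.51), but its ratio outside the mixed clusters was 0.14, interval -0.05 to 0.34. Cnr1, the cannabinoid receptor, stood at 18.8 CPM in sham and 27.4 CPM in injury (log2 ratio 0.55, interval 0.14 to 0.96, and 0.42, interval -0.04 to 0.90 outside the mixed clusters).

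Glutamate receptors had a median of 0.09 over 23 genes. Of these, 18 were higher and 5 lower in injury, beside 49.1% of all genes lower. Counting intervals lay above 0 for 10 and below 0 for 2. Of the 23, 0 were at least 1.5-fold higher or lower, beside 2.01% and 1.42% of all genes. Grin2a, an NMDA receptor subunit, stood at 728 CPM in sham and 911 CPM in injury (log2 ratio 0.32, interval 0.26 to 0.39), Grin2b at 343 CPM in sham and 393 CPM in injury (log2 ratio 0.20, interval 0.10 to 0.29), and the other neurons had 0.45 and 0.18 for them. Gria1, an AMPA receptor subunit, had a log2 ratio of 0.13 in the members and 0.47 in the other neurons. These 3 subunits were thus higher in the injury library in members and other neurons alike. Outside the mixed clusters 1 of 20 compared was at least 1.5-fold higher, beside 1.48% of genes, the kainate receptor Grik1. GABA receptor genes had a median of 0.04 over 18 genes. Kctd8 stood at -0.19 (interval -0.22 to -0.15) and Gabbr2 at 0.13 (interval 0.09 to 0.17), so the receptor subunit and its partner differed in opposite directions, as they did in the other neurons (-0.24 and 0.28). Gabrg1, the 1 GABA receptor gene past 1.5-fold, had 30 UMIs in sham and 96 in injury (log2 ratio 0.74, interval 0.13 to 1.38), and 0.11, interval -1.32 to 1.68 outside the mixed clusters.

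Habenular transcription factors summed to 3867 CPM in sham and 3866 CPM in injury (log2 ratio interval -0.03 to 0.03). Of 17 compared 11 were lower, beside 49.1% of all genes, with a median of -0.10. Past 1.5-fold were 0, beside 2.01% of all genes higher and 1.42% lower. Outside the mixed clusters 9 of 15 were lower, beside 49.5% of all genes there, with a median of -0.0556. Pou4f1 (log2 ratio -0.30, interval -0.56 to -0.03), Irx1 (log2 ratio -0.43, interval -0.79 to -0.07), Etv1 (log2 ratio -0.22, interval -0.30 to -0.13) and Zic1 (log2 ratio -0.25, interval -0.38 to -0.12) were lower, and Zfhx3 (log2 ratio 0.31, interval 0.18 to 0.43) and Tshz2 (log2 ratio 0.40, interval 0.22 to 0.59) were higher. Lmo3, a LIM-domain transcription regulator and unused habenular marker, stood at 333 CPM in sham and 249 CPM in injury, from 1223 UMIs in sham and 1754 in injury (log2 ratio -0.42, interval -0.52 to -0.31). It was lower in injury in 7 of 10 clusters, among them clusters 1 (-0.43), 2 (-0.15), 3 (-0.38) and 9 (-0.30), which held most of its UMIs, and higher in clusters 5, 6 and 8, at 0.39, 0.73 and 0.65, with intervals that held 0 in these 3 and in clusters 2, 7, 9 and 10. In the other neurons Lmo3 had a ratio of 0.75, from 13.6 and 22.8 CPM. The medial habenula markers outside the rule had a median of -0.10, with 0 of 14 past 1.5-fold, and of -0.00188 outside the mixed clusters.

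**Figure D4:**
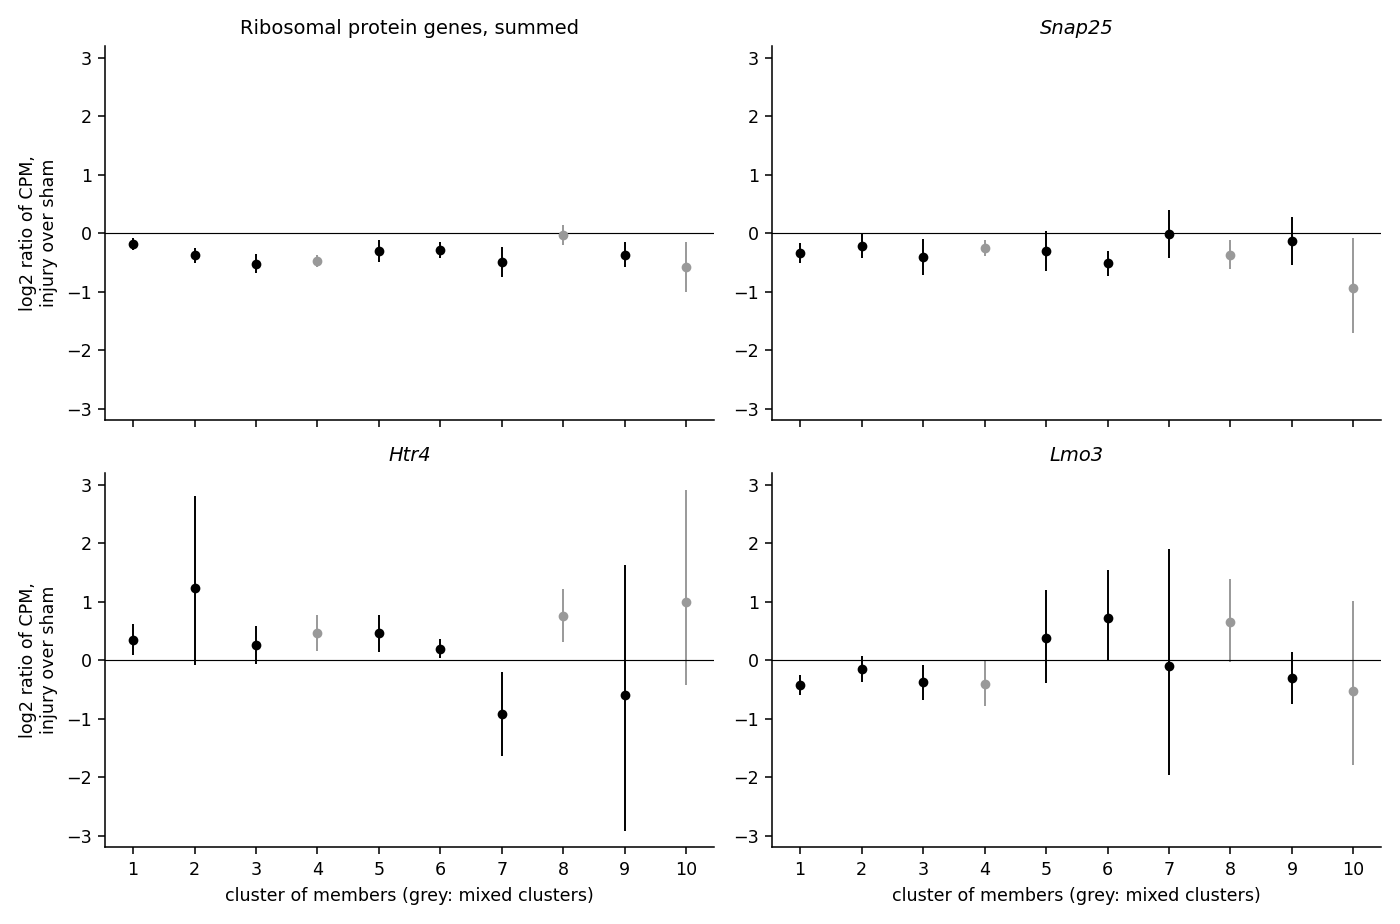
Log2 ratio of CPM, injury over sham, within each of the 10 clusters of members, for the summed ribosomal protein genes, Snap25, Htr4 and Lmo3, with 95% counting intervals and mixed clusters in grey. Ribosomal and Snap25 ratios lie at or below 0 in all clusters, Htr4 is above 0 except in clusters 7 and 9, and Lmo3 is below 0 in clusters 1, 2 and 3 and above it in clusters 5, 6 and 8.

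Axon guidance genes had a median of -0.03 over 33 genes, with 1 at least 1.5-fold higher and 1 lower, shares near the 2.01% and 1.42% of all genes. Sema3a, a repulsive guidance ligand, had 69 UMIs in sham and 82 in injury (log2 ratio -0.69, interval -1.17 to -0.21), and Unc5d, a netrin receptor, 343 UMIs in sham and 1098 in injury (log2 ratio 0.74, interval 0.56 to 0.92). Unc5d leads mixed cluster 8 and had 0.37, interval -0.26 to 1.03 outside the mixed clusters, whereas Sema3a had -0.69, interval -1.22 to -0.16. Sema3a leads cluster 9, and its intervals within clusters 2 and 9 held 0. Epha7 and Epha3, ephrin receptors, stood at -0.27 and -0.31 in the members, against 0.01 and -0.13 in the other neurons. Axon injury and stress genes, a list that also holds heat shock genes such as Hspa8, summed to 577 CPM in sham and 535 CPM in injury (log2 ratio -0.11, interval -0.19 to -0.03). Of these, 8 of 9 compared were lower in injury, beside 49.1% of all genes. Gap43 stood at 61.8 CPM in sham and 65.8 CPM in injury (log2 ratio 0.09, interval -0.14 to 0.33), Sox11 had 56 UMIs in sham and 87 in injury (log2 ratio -0.30, interval -0.80 to 0.21), and the injury factor Atf3 had 1 UMI in sham and 0 in injury. Of the 9 compared 0 were past 1.5-fold. Their median was -0.12, and -0.27 over the same genes outside the mixed clusters, but 0.0175 after thinning to 4000 UMIs, with the mixed clusters kept.

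Immediate early genes, which neuronal activity induces, were sparse apart from Nr4a2, which is also a habenular transcription factor. Fos had 4 UMIs in sham and 2 in injury, Egr1 had 11 and 5, and Npas4 had 13 UMIs in sham and 22 in injury, found in 2.43% of sham and 2.29% of injury members and 0.132% of sham and 0.178% of injury oligodendrocyte-like nuclei. Homer1 stood at 40.03 CPM in sham and 42.3 CPM in injury (log2 ratio 0.08, interval -0.21 to 0.38) and Nr4a1 at 19.1 CPM in sham and 16.3 CPM in injury (log2 ratio -0.22, interval -0.66 to 0.23). The 4 compared genes had a median of -0.20, with 0 past 1.5-fold, beside 2.01% of all genes higher and 1.42% lower. The sum of the 19 genes was 270.4 CPM in sham and 245 CPM in injury, of which Nr4a2 gave most UMIs. Nr4a2 itself had a log2 ratio -0.16, interval -0.31 to -0.02.

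**Figure D5:**
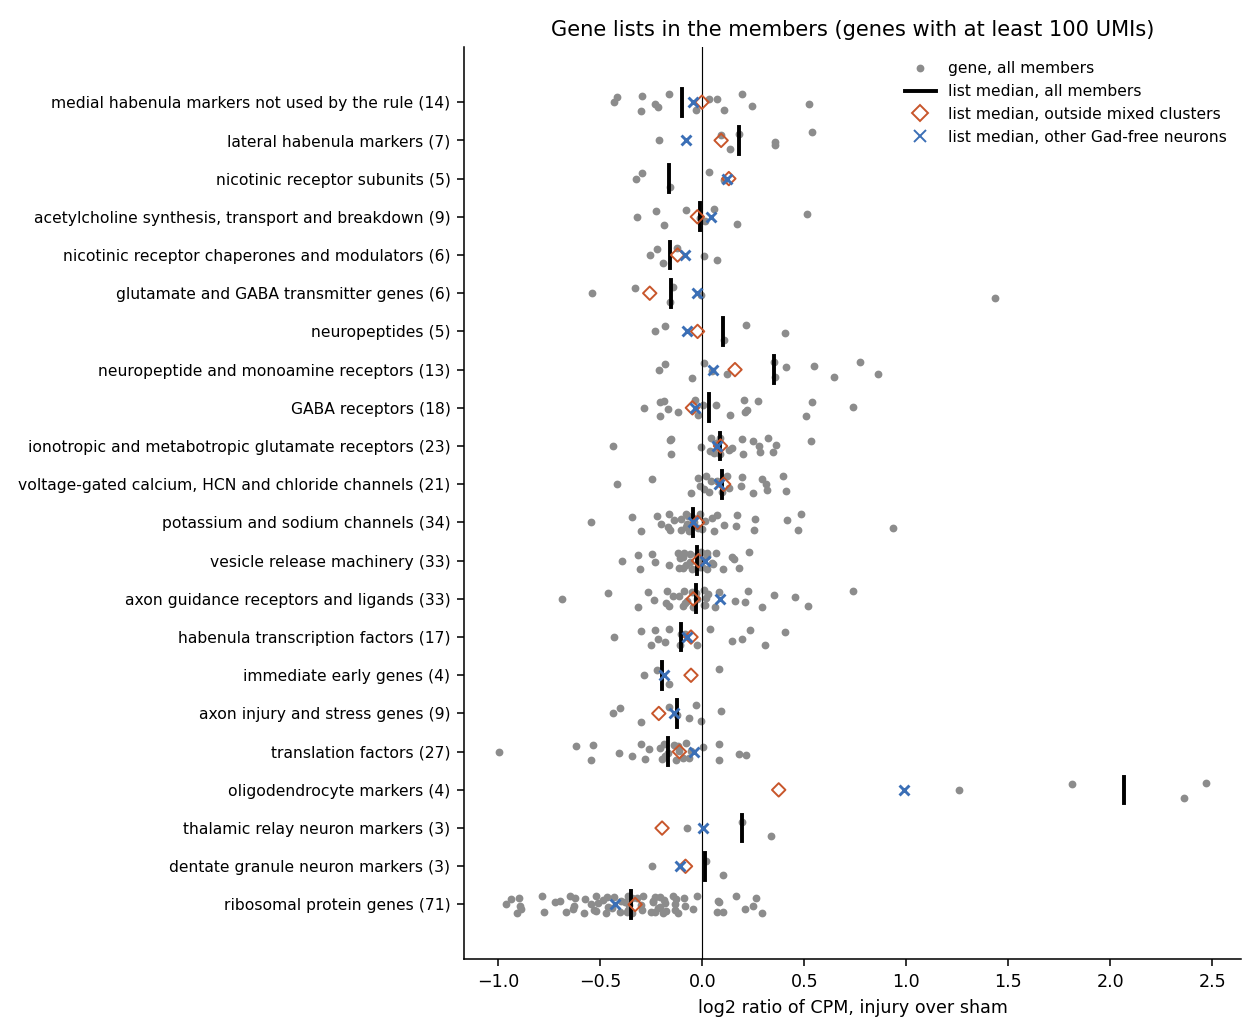
Log2 ratio of CPM, injury over sham, for genes with at least 100 UMIs over the members (grey points) in 22 lists of 3 or more compared genes, with the list median over all members (bar), over genes with at least 100 UMIs outside the mixed clusters (diamond) and in the other Gad-free neurons (cross). Ribosomal protein genes lie left of 0 under all 3 symbols, oligodendrocyte markers lie right with the diamond nearer 0 than the bar, and most other medians lie within 0.2 of 0.

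Marker lists of other cell types were measured over the same nuclei, first in sham and then in injury. Astrocyte markers summed to 72.4 and 111 CPM in all members and 16.9 and 56.6 CPM outside the mixed clusters, and Slc1a2 was the 1 of the 6 with at least 100 UMIs. Gfap had 1 UMI in sham and 28 in injury. Microglial markers summed to 108 and 108 CPM, of which P2ry12 gave 263 and 501 UMIs, while Csf1r had 6 and 11 and Tmem119 had 2 and 0. Oligodendrocyte precursor markers summed to 12.5 and 9.38 CPM, with Pdgfra at 4 and 1 UMIs, and choroid plexus and ependymal markers to 2.18 and 2.27 CPM. Cortical neuron markers summed to 14.98 and 12.6 CPM, with Neurod6 at 10 and 12 UMIs, and to 5.90 and 12.4 CPM in other neurons. Relay neuron markers summed to 1127 and 1103 CPM over all members and 368 and 329 CPM outside the mixed clusters, against 4381 and 3897 CPM in other neurons. Lateral habenula markers summed to 635 and 686 CPM and to 366 and 349.9 CPM outside the mixed clusters. Of 6 compared nicotinic receptor chaperones and modulators 0 were past 1.5-fold (median -0.16), as were 0 of 2 muscarinic receptors (median -0.01) and 0 of 3 dentate granule neuron markers (median 0.01). Over all genes 2.01% were at least 1.5-fold higher and 1.42% at least 1.5-fold lower. Among glial lists, the oligodendrocyte and astrocyte sums differed most between the libraries, and their part in the other differences was not tested.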

How the data were processed

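The deposited files were 2 matrices of raw UMI counts per gene and nucleus barcode, 1 for sham and 1 for injury. According to the study's methods and the submitters' processing notes, nuclei of 4 mice a group were sorted, pooled and sequenced with a 10x 3′ kit, and the authors counted reads with Cell Ranger 6.0.2 on GRCm38 and analysed them in Seurat 4.0. The use of strand and of intronic reads is not given in the sources used here, so overlapping genes can share reads. A symbol was found for 32158 of the 32285 gene rows, and coordinates are those of GENCODE M21.

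Nuclei with 200 to 7500 genes and at most 2% mitochondrial UMIs were kept, which removed 17 sham and 51 injury barcodes. The members and gene lists were chosen with earlier results of these data known. Neuron-like nuclei held at least 2 of Snap25, Syt1 and Rbfox3. Ptprq and Pde11a nuclei held at least 3 UMIs of the gene, and oligodendrocyte-like nuclei at least 10 UMIs of 5 markers. UMIs were summed per library and set as CPM. Ratios of genes with at least 100 UMIs used exact conditional binomial intervals, levels exact Poisson and shares Clopper-Pearson intervals, all at 95%. With 1 library a group no test or adjusted p was possible. Depth sets the precision, and 0 UMIs allow up to 3 UMIs of the summed total. List medians used a prior of 0.5 UMI.

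Doublets were called with Scrublet per library (0.8% per 1000 nuclei) and kept. Members were clustered with Leiden (2000 variable genes, 20 components, resolution 0.5). Mixed clusters, in which over 50% of nuclei were called doublets, and glia-bearing nuclei with at least 5 astrocyte or oligodendrocyte UMIs were defined after the data were seen. Named genes were the 12 highest and 12 lowest ratios, without rule genes and mitochondrial genes, the 15 highest over other neurons, and the markers and list members. The same ranking outside the mixed clusters and the values within clusters were added after their values were seen. Other alternatives were a stricter and a looser rule, Chat detected, no Gad condition, no filter on nuclei, no called doublets, TMM factors, the mean of single nuclei, thinning to 4000 UMIs, other UMI minimums, a prior of 2 UMIs and 2-fold. Thinning left out nuclei with fewer than 4000 UMIs. Python 3.11.15, numpy 2.4.6, scipy 1.17.1, pandas 2.3.3, scanpy 1.11.5, leidenalg 0.10.2, matplotlib 3.10.9 and R 4.3.3 were used, and edgeR 4.0.16 for TMM factors only. The scripts were tested on simulated data. Results on some genes of the lists are not reported here.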

Additional observations from a re-analysis of the deposited data

Results flagged for a closer look

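Of 392 compared genes that are named, listed or ribosomal, 22 had opposite directions in the members and in the other Gad-free neurons, with counting intervals away from 0 in both. For 7 of the 22 the direction and the interval also held outside the mixed clusters. The difference between members and other neurons was not tested, since each group had 1 library.

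Epha6, an ephrin receptor, had a log2 ratio of injury over sham of -0.16 (interval -0.21 to -0.12) in the members, 0.04 in the other neurons and -0.17 outside the mixed clusters. Gria3, an AMPA receptor subunit, had a log2 ratio of injury over sham of -0.15 (interval -0.28 to -0.02) in the members, 0.14 in the other neurons and -0.31 outside the mixed clusters. Grik1, a kainate receptor subunit, had a log2 ratio of injury over sham of 0.35 (interval 0.15 to 0.55) in the members, -0.11 in the other neurons and 0.73 outside the mixed clusters. Kcnip4, a Kv4 channel partner, had a log2 ratio of injury over sham of 0.0573 (interval 0.0303 to 0.0844) in the members, -0.17 in the other neurons and 0.19 outside the mixed clusters. Lmo3, a LIM-domain regulator, had a log2 ratio of injury over sham of -0.42 (interval -0.52 to -0.31) in the members, 0.75 in the other neurons and -0.36 outside the mixed clusters. Sema3a, a repulsive guidance ligand, had a log2 ratio of injury over sham of -0.69 (interval -1.17 to -0.21) in the members, 0.59 in the other neurons and -0.69 outside the mixed clusters. Slc4a4, a bicarbonate cotransporter, had a log2 ratio of injury over sham of 0.43 (interval 0.20 to 0.66) in the members, -0.05 in the other neurons and 1.39 outside the mixed clusters. 

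Sema3a and Lmo3 were lower in the injury members and higher in the other injury neurons. The other neurons are a mixture of types. Cortical neuron markers summed there to 5.90 CPM in sham and 12.4 CPM in injury. A UMI of Lmo3 was found in 6.67% of them in sham and 10.3% in injury. The part of cell type shares in the ratios of the other neurons was not tested. Sema3a leads cluster 9, which held 7.65% of the sham and 4.79% of the injury members, so its level and cluster sizes are not independent. Within cluster 2 its log2 ratio was -0.77 (interval -1.58 to 0.05) and within cluster 9 -0.32 (interval -1.14 to 0.49). Slc4a4 had 0.41 (interval -0.09 to 0.93) outside the mixed clusters once glia-bearing nuclei were also left out.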

How the results depend on the processing

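Every difference compares 1 library with 1 library, and intervals leave out the spread between mice. No paired analysis was possible because sham and injury were 1 library apiece. The share of members kept its direction under all settings, with a log2 ratio of 0.61 after thinning to 4000 UMIs against 0.37. The counts of genes at least 1.5-fold higher and lower, 191 and 135, depended on the settings. They were 122 and 83 without called doublets, 114 and 82 outside the mixed clusters, 111 and 87 when glia-bearing nuclei were also left out, 435 and 305 with at least 50 UMIs, 18 and 5 with at least 400, and 36 and 2 at 2-fold. The higher count was 290 with the mean of single nuclei, and the lower 85 under the stricter rule and 64 after thinning. The median of unused habenula markers, -0.10, was -0.0231 without called doublets, -0.00188 outside the mixed clusters, -0.000762 also without glia-bearing nuclei and -0.0153 after thinning. The nicotinic median, -0.16, was -0.31 under the stricter rule, -0.00198 without called doublets and -0.0458 with the mean of single nuclei. The oligodendrocyte median, 2.07, was 2.35 under the stricter rule, 1.62 with the mean of single nuclei, 0.75 outside the mixed clusters and 0.54 also without glia-bearing nuclei, and turned to -0.13 without called doublets. There St18, D7Ertd443e and Mbp turned to -0.55, -0.56 and -0.26, and D7Ertd443e had -1.08 without mixed clusters and glia-bearing nuclei. The lateral habenula median, 0.18, turned to -0.0329 without called doublets, -0.11 outside the mixed clusters and -0.13 also without glia-bearing nuclei. After thinning, the medians of nicotinic chaperones and of axon injury and stress genes turned to 0.0895 and 0.0175. The cause of these changes was not tested. The ribosomal median stayed between -0.36 and -0.30 under all settings run.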

Other observations

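Among the 15 genes highest in the members relative to other neurons, several were long non-coding genes or lay outside the gene lists. Lamc3, a laminin subunit at chr2:31887291-31946539 (plus strand), stood at 80.3 CPM in sham and 90.2 CPM in injury in the members against 0.862 and 1.09 CPM in other neurons. The long non-coding genes Gm31517 (chr14:15015189-15065231), Gm12130 (chr11:38493330-38520013) and Gm12128 (chr11:37658989-37673166) stood at 21.5 CPM in sham and 24.01 CPM in injury, at 153 CPM in sham and 141 CPM in injury and at 346 CPM in sham and 396 CPM in injury, against 0.389 and 0.511 CPM, 2.64 and 3.19 CPM and 8.89 and 11.3 CPM. Gm12128 and Gm12130 lie on the same chromosome and on opposite strands. Between the libraries Gm12128 had a log2 ratio of 0.19 (interval 0.10 to 0.29), and Gm12130 -0.12 (interval -0.27 to 0.04).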
